A study of Mus musculus with 9 samples.

Results

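Cathepsins are the main proteases of the lysosome, and legumain is a lysosomal protease that cuts proteins after asparagine. The group described here is defined by gene name and was chosen with earlier results of these data known. It holds 10 genes, Ctsa, Ctsb, Ctsd, Ctsf, Ctsh, Ctsk, Ctsl, Ctso, Ctsz and Lgmn, of 18062 genes in the table. RNA was sequenced from gastrocnemius muscle of GAA knock-out and wild-type mice. Gaa encodes acid alpha-glucosidase, the lysosomal enzyme that breaks down glycogen and whose loss causes Pompe disease. The 5 GAA knock-out libraries came from muscle at 5 months of age. In these mice Gaa was disrupted at exon 6, with LOX P sites in introns 5 and 6. The 4 wild-type libraries comprised 2 at 5 months and 2 at 6 months, and the value columns of the table do not name the age, so both ages form 1 group. Both genotypes had a mixed BL6/129j background, in a colony kept by brother-sister mating. The labels name no other allele or agent, and a muscle extract holds fibres together with the vessel, connective tissue and immune cells between them. The labels do not say that libraries of a group came from separate mice, so the p-values reflect library-to-library spread, part of which may be technical.

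Cathepsins differ by the residue that does the cutting. Ctsd is an aspartic protease, Ctsa a serine carboxypeptidase, and Ctsb, Ctsf, Ctsh, Ctsk, Ctsl, Ctso and Ctsz are cysteine proteases of the papain family, while Lgmn belongs to a separate family of cysteine proteases. They are made as inactive precursors, carried to the lysosome mostly through mannose 6-phosphate tags, and activated there by removal of a propeptide. Outside the lysosome the cysteine proteases among them are held in check by cystatins. In muscle the lysosomal proteases degrade the protein that autophagy delivers, while the calpains act in the cytosol. Many lysosomal genes carry an E-box, a short DNA motif bound by transcription factors such as TFEB and TFE3, near their start.

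Levels are RPKM, read numbers scaled by transcript length and library depth, as the authors deposited them. The reads behind an RPKM per kilobase, estimated from the steps between low values, ran from 17.7 to 37.6 across knock-out libraries and from 37.2 to 64.3 across wild-type libraries. Gaa levels were 46.0 to 56.0 RPKM in wild-type muscle and 3.11 to 3.64 RPKM in knock-out muscle. The muscle genes Tnnt3, Ckm and Acta1 had the highest levels of their marker list by the mean over all 9 libraries, with knock-out means of 17000, 16600 and 15600 RPKM and wild-type means of 17000, 13500 and 13900 RPKM. Over the 11032 genes with a mean of at least 0.5 RPKM, the median log2 fold change, knock-out against wild type, was 0.12. Changes are therefore also given after the log2 values of each library were shifted to a common median and fitted again. Below, this is called median centring, or setting the median gene to 0.

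Lgmn and 8 cathepsins were higher in the knock-out muscle, and Ctso was not. Lgmn rose 3.41-fold, and Ctsh, Ctsb, Ctsz, Ctsd, Ctsk, Ctsl and Ctsa rose 1.54-fold to 1.87-fold. Ctsf rose 1.13-fold, and the 0.12 of the median gene lay inside the confidence interval of its log2 fold change. By limma's moderated test on log2(RPKM + 0.1), with Benjamini-Hochberg adjustment over 11032 genes and a threshold of 0.05, 9 of 10 members were higher, against a background of 37.0% of all genes tested. None was lower, against a background of 14.8%. In 9 members every knock-out library lay above every wild-type library, which held for 30.9% of all genes tested. With the median gene set to 0, 8 members were higher against a background of 25.1%, and 1, Ctso, was lower against a background of 25.0%. The members and the gene lists below were chosen with earlier results of these data known, so their counts beside the background are descriptive. All 10 members passed the filter on low values. Their median log2 fold change was 0.71, and 0.58 relative to the median of all genes. A bulk extract cannot tell apart more RNA per cell and more cells of a type that express a gene.

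**Figure D1:**
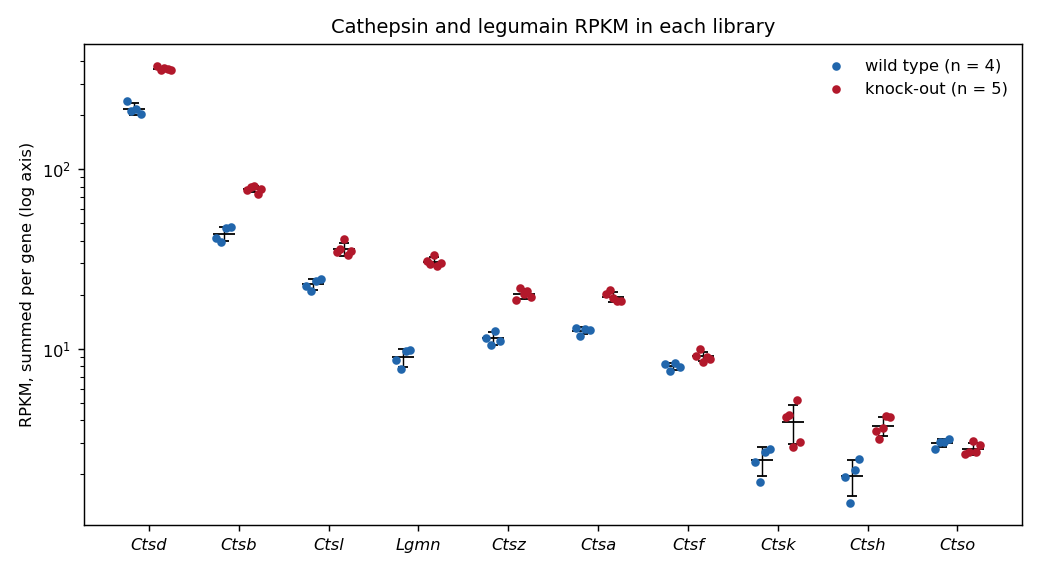
Level of each of the 10 genes in each library, in RPKM on a log axis, with wild type (4 libraries, blue) and knock-out (5 libraries, red) side by side and the mean and SD of each group as lines. Points of the groups are apart for every gene except Ctso, and the gap is widest for Lgmn.

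Promoter sequence was examined because genes of the lysosome can share the E-box and because 9 members were higher together. RefSeq promoter windows on the GRCm38.p6 assembly, from 250 bases before to 50 bases after a transcription start, matched 8 of the 10 genes by symbol with 10 windows, Ctsa and Lgmn having 2 starts each. Ctsb and Ctsh were not matched. The E-box CACGTG was searched with its longer form TCACGTGA, which contains it. Both read the same on either strand, so a search of one strand covers both. The hexamer was found in 5 of 10 member windows, in Ctsa, Ctsd, Lgmn, Ctsl and Ctsf, against 7.15% of all 32851 windows. The octamer was found in 2 member windows, in Ctsa and Ctsd, against 0.974% of all windows. A match describes the letters only. Windows with a match belonged to genes with folds from 1.13 (Ctsf) to 3.41 (Lgmn), and windows without one belonged to Ctsz (1.77), Ctsk (1.59), Ctso (0.93) and the other starts of Ctsa and Lgmn.

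The 4 windows below show the octamer of Ctsa and Ctsd, the hexamer of Lgmn, the gene with the largest fold, and the hexamer of Ctsf, the smallest fold among the members that were higher. They are given 5′ to 3′ on the strand of the gene, with matches in capitals. In Ctsa the octamers begin 13 bases before and 5 bases after the start. In Ctsd the hexamer begins 245 bases and the octamer 99 bases before it. The Lgmn match begins 49 bases before the start of the window shown, and the Ctsf match begins 79 bases before its start. The other windows of Lgmn and Ctsa hold no match, and which start the sequenced RNA used was not examined.
Ctsa, chr2:164833523-164833822 (plus strand): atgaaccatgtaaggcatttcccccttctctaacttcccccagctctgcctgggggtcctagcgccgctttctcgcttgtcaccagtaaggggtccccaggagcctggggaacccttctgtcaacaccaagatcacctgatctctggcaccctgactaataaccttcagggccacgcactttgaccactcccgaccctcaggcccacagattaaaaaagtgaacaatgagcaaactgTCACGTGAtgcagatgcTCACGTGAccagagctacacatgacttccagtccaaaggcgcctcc
Ctsd, chr7:142387778-142388077 (minus strand): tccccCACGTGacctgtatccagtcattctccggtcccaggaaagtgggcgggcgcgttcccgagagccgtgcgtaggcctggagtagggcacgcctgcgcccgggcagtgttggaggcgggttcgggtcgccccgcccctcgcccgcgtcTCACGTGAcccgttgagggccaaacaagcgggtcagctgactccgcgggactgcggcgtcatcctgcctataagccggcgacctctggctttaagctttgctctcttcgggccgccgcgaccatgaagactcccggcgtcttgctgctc
Lgmn, chr12:102439043-102439342 (minus strand): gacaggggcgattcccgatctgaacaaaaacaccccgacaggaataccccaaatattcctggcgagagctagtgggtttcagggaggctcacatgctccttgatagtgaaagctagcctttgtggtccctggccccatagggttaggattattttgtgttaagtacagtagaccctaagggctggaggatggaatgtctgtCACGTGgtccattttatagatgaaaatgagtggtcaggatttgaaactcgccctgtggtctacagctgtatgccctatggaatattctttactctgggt
Ctsf, chr19:4854915-4855214 (plus strand): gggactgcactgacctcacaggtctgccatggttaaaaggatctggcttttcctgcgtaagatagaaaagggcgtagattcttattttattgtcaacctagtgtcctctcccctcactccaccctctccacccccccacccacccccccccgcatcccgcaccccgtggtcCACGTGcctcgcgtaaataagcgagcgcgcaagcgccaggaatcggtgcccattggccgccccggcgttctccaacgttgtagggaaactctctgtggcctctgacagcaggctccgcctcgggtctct

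**Figure D2:**
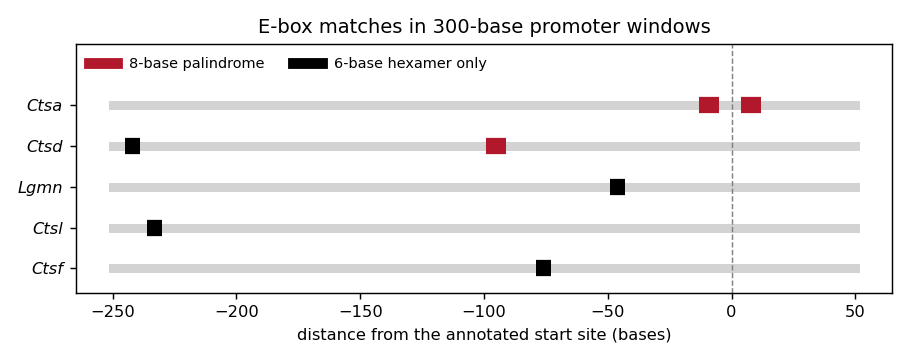
Position of each E-box match in the 5 member windows that hold one, as distance in bases from the transcription start (dashed line), with octamers in red and hexamers outside an octamer in black. Ctsa has 2 octamers, on either side of its start, and Ctsd has 1 with a separate hexamer farther from the start.

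Ctsd, the aspartic endopeptidase that starts the breakdown of many lysosomal proteins, had the highest level of the group. It was at 377, 359, 368, 361 and 356 RPKM in knock-out libraries 1 to 5 and at 241, 211, 217 and 203 RPKM in the 4 wild-type libraries. The knock-out values lay close together and well above the wild-type values. The means were 364 ± 8.52 (SD, n = 5) and 218 ± 16.6 (SD, n = 4) RPKM, a log2 fold change of 0.74 with a standard error of 0.06 (limma adjusted p = 1e-06). Of the 50-base stretches of Ctsd transcripts in the GENCODE M21 annotation, 36.6% also occur in Gm49369, a gene model on the same strand, so reads there cannot be assigned to Ctsd alone.

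Ctsa trims residues from the carboxyl end of peptides and also protects the lysosomal beta-galactosidase and neuraminidase from degradation. Knock-out libraries 1 to 5 had 20.1, 21.3, 19.1, 18.5 and 18.5 RPKM, and the wild-type libraries had 13.0, 11.7, 12.9 and 12.7 RPKM. The lowest knock-out value was above the highest wild-type value. The log2 fold change was 0.63 with a standard error of 0.06 (limma adjusted p = 6e-06). The table lists 2 Ctsa transcripts, which were summed. One was at 10.2 ± 1.49 RPKM (SD, n = 5) in knock-out and 7.53 ± 0.571 RPKM (SD, n = 4) in wild-type muscle, a log2 difference of 0.42 (exact two-sided permutation p = 0.024). The other was at 9.29 ± 1.44 and 5.06 ± 0.504 RPKM, a log2 difference of 0.85 (exact two-sided permutation p = 0.0079). The first made up 42.8% to 60.8% of the summed level in knock-out and 57.3% to 65.0% in wild-type libraries, so these shares overlapped. Exons of Ctsa overlap those of Neurl2 and Pltp on the opposite strand, 16.3% of its 50-base stretches occur in other genes, and the use of strand in counting is not given in the sources used here. Neurl2 and Pltp also rose, with log2 fold changes of 0.52 and 0.37 (limma adjusted p = 0.00067 and 0.038).

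Lgmn, the asparaginyl endopeptidase that also cuts several cathepsins into their mature chains, showed the largest difference of the group. Its level was 30.9, 29.8, 33.3, 28.9 and 30.2 RPKM in knock-out libraries 1 to 5 and 8.66, 7.66, 9.70 and 9.78 RPKM in the wild-type libraries. The lowest knock-out library was far above the highest wild-type library. Means were 30.6 ± 1.66 (SD, n = 5) and 8.95 ± 1.00 (SD, n = 4) RPKM, a log2 fold change of 1.77 with a 95% confidence interval of 1.60 to 1.94 (limma adjusted p = 8.7e-09). It ranked 162 of 11032 genes by log2 fold change from the highest. No 50-base stretch of its transcripts was shared with another gene.

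Ctsl is a cysteine endopeptidase with a broad range of substrates. It was at 34.8, 36.1, 40.9, 33.1 and 35.1 RPKM in knock-out libraries 1 to 5 and at 22.3, 21.0, 23.9 and 24.5 RPKM in the wild-type libraries. The groups were apart, with a log2 fold change of 0.65 and a standard error of 0.07 (limma adjusted p = 1.5e-05). Exons of Ctsl overlap an antisense gene, Gm47123, and a pseudogene, Gm49230, whose levels are not analysed here. No 50-base stretch of the Ctsl transcripts that were compared was shared with another gene.

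Ctsk, the collagen-cutting cathepsin best known from osteoclasts, varied most, relative to its mean, among knock-out libraries. It was at 4.18, 4.27, 2.85, 5.15 and 3.04 RPKM in knock-out libraries 1 to 5 and at 2.33, 1.80, 2.65 and 2.76 RPKM in the wild-type libraries. Knock-out libraries 3 and 5 were only slightly above the highest wild-type library. The log2 fold change was 0.67 with a 95% confidence interval of 0.29 to 1.05 (limma adjusted p = 0.0075; exact two-sided permutation p = 0.024). It was 0.48 without the wild-type libraries numbered 1 and 2 in the table, where the call was lost (limma adjusted p = 0.071). An estimated 76 to 293 reads per library lay behind these values. Of 6 osteoclast markers, 5 were under the filter on low values, and the list summed to 1.39 to 2.55 RPKM in knock-out and 1.43 to 2.39 RPKM in wild-type libraries.

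Ctsf, an endopeptidase with a long propeptide that holds a cystatin-like domain, differed little. It was at 9.15, 9.97, 8.47, 8.96 and 8.80 RPKM in knock-out libraries 1 to 5 and at 8.21, 7.47, 8.32 and 7.93 RPKM in the wild-type libraries. The groups were narrowly apart, knock-out library 3 being next to the highest wild-type library. The log2 fold change was 0.18 with a 95% confidence interval of 0.05 to 0.32 (limma adjusted p = 0.028). It was 0.06 with the median gene set to 0 (limma adjusted p = 0.44), and the call was also lost when knock-out library 2, wild-type library 2 or wild-type library 4 was left out (0.15 to 0.18, adjusted p of 0.055, 0.088 and 0.058).

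The 3 cysteine cathepsins that can trim proteins from an end, Ctsb, Ctsz and Ctsh, all rose. Ctsb, an endopeptidase that also removes dipeptides from the carboxyl end, was at 76.9, 80.0, 81.1, 73.2 and 77.9 RPKM in knock-out libraries 1 to 5 and at 41.3, 39.1, 47.2 and 47.4 RPKM in the wild-type libraries. Every knock-out value was clear of the wild-type range. Its log2 fold change was 0.83 with a standard error of 0.07 (limma adjusted p = 1.3e-06). Fdft1, whose exons overlap Ctsb on the opposite strand and share 15.4% of its 50-base stretches, changed in the other direction, with means of 12.3 and 16.6 RPKM and a log2 fold change of -0.43 (limma adjusted p = 8.7e-05).

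Ctsz, a carboxypeptidase that removes single residues, was at 18.6, 21.8, 20.2, 21.1 and 19.4 RPKM in knock-out libraries 1 to 5 and at 11.4, 10.5, 12.6 and 11.1 RPKM in the wild-type libraries. The groups were apart, and the log2 fold change was 0.82 with a standard error of 0.07 (limma adjusted p = 1.9e-06). Ctsh, an aminopeptidase, was at 3.46, 3.15, 3.61, 4.20 and 4.16 RPKM in knock-out libraries 1 to 5 and at 1.92, 1.38, 2.11 and 2.44 RPKM in the wild-type libraries. These were among the lowest levels of the group, with an estimated 84 to 255 reads per library, but the groups did not overlap. The log2 fold change of Ctsh was 0.91 with a 95% confidence interval of 0.59 to 1.22 (limma adjusted p = 0.00029).

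Ctso, a cysteine cathepsin whose substrates are less well described, was the only member whose groups overlapped. It was at 2.59, 2.66, 3.07, 2.64 and 2.89 RPKM in knock-out libraries 1 to 5 and at 2.76, 3.03, 3.01 and 3.12 RPKM in the wild-type libraries. Knock-out library 3 was above 3 of the 4 wild-type libraries, and 3 knock-out libraries were below all of them. The log2 fold change was -0.10 with a 95% confidence interval of -0.27 to 0.06 (limma adjusted p = 0.26; exact two-sided permutation p = 0.13). With the median gene set to 0 it was -0.23 and passed the threshold (limma adjusted p = 0.02).

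**Figure D3:**
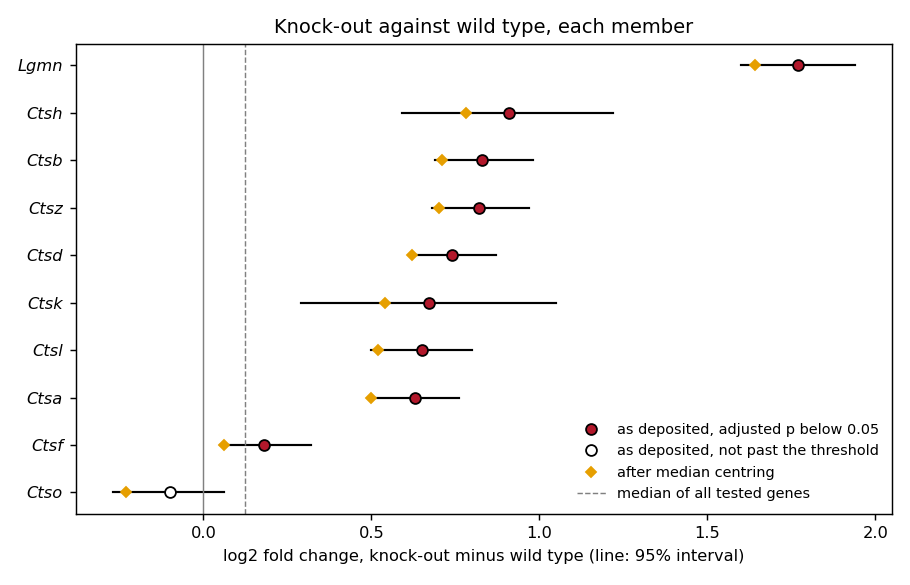
Log2 fold change of each gene, knock-out against wild type, with its 95% confidence interval from limma (circles and lines), beside the value after each library was shifted to a common median (diamonds). Lgmn is at 1.77, 7 genes lie between 0.63 and 0.91, Ctsf is at 0.18 and Ctso at -0.10.

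To ask whether members changed by different amounts, the log2 ratio of every pair of members was taken within each library and compared between groups, which removes any factor that scales a whole library apart from the effect of the pseudocount. This comparison was chosen after the values were seen. Of 45 pairs, 24 differed (exact two-sided permutation test, Benjamini-Hochberg adjustment over the pairs). Lgmn rose more than all 9 other members, by 0.86 on the log2 scale over Ctsh and by 1.87 over Ctso. Ctso rose less than 8 members, the exception being Ctsf (0.29, adjusted exact permutation p = 0.055), and Ctsf rose less than 7 members, the exceptions being Ctso and Ctsk (0.49 less than Ctsk, adjusted exact permutation p = 0.079).

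Ctsb rose more than Ctsa by 0.21 (standard error 0.07, adjusted exact permutation p = 0.018) and more than Ctsl by 0.18 (standard error 0.04, adjusted exact permutation p = 0.031). No other pair among Ctsa, Ctsb, Ctsd, Ctsh, Ctsk, Ctsl and Ctsz passed the threshold. The ratio of Ctsb to Ctsz differed by 0.01 with a standard error of 0.07. That of Ctsd to Ctsk differed by 0.07 with a standard error of 0.22, so a difference of the size seen between Ctsb and Ctsa was not detectable for Ctsk.

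**Figure D4:**
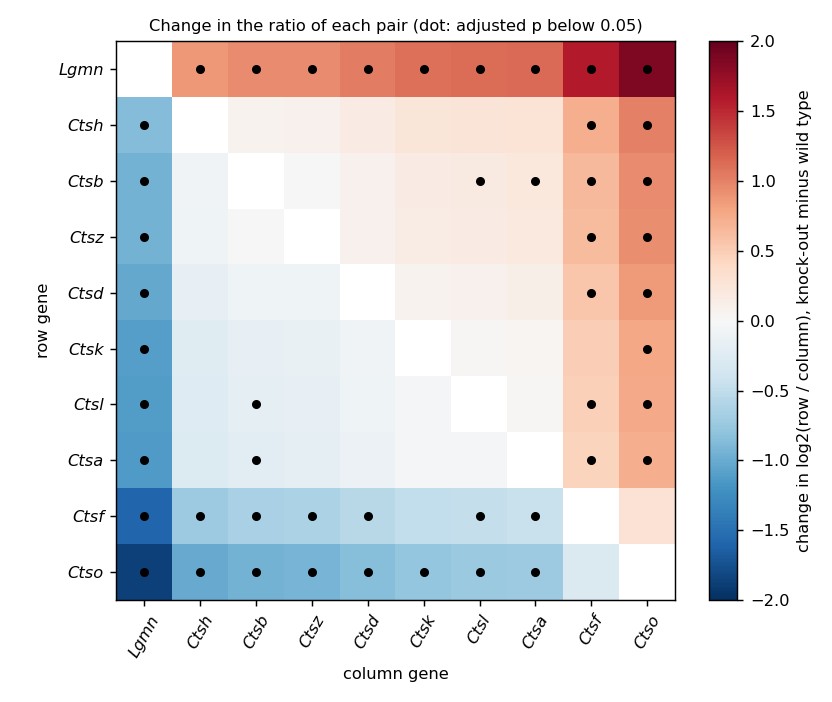
Difference between knock-out and wild type in the log2 ratio of each pair of members, as row gene over column gene on a colour scale from -2.0 to 2.0, with a dot on pairs past the threshold (adjusted exact permutation p below 0.05). All 9 pairs with Lgmn have a dot, as do 8 pairs with Ctso, and the pair of Ctso and Ctsf has none.

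Because RPKM is per length, levels can be ordered across genes. In the knock-out the order of mean level was Ctsd, Ctsb, Ctsl, Lgmn, Ctsz, Ctsa, Ctsf, Ctsk, Ctsh and Ctso. The ranges of Ctsl and Lgmn, of Ctsz and Ctsa, and of Ctsk and Ctsh overlapped, and the other neighbours were apart. In the wild type the order was Ctsd, Ctsb, Ctsl, Ctsa, Ctsz, Lgmn, Ctsf, Ctso, Ctsk and Ctsh, with overlapping ranges for Ctsa and Ctsz, Lgmn and Ctsf, and Ctsk and Ctsh. Lgmn thus stood beside Ctsf in the wild type and beside Ctsl in the knock-out, and Ctso was above Ctsk and Ctsh in the wild type and below both in the knock-out.

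Summed over the 10 genes, the level was 568 ± 11.6 RPKM (SD, n = 5) in knock-out and 333 ± 17.1 RPKM (SD, n = 4) in wild-type muscle, or 0.157% and 0.103% of all RPKM in a library. Ctsd supplied 64.1% of the knock-out sum and 65.4% of the wild-type sum, and its share ranged from 63.2% to 65.3% and from 62.5% to 68.3%. Ctsb supplied 13.7% and 13.2%. The share of Lgmn was 5.39% in the knock-out (5.19% to 5.74%) and 2.69% in the wild type (2.44% to 3.02%), and the share of Ctso was 0.488% and 0.9%.

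Of 14 further cathepsin symbols, 4 were in the table and 2 passed the filter. Both rose, where 37.0% of all genes tested were higher. Ctss, an endopeptidase of antigen-presenting cells, was at 5.01, 6.26, 5.65, 9.06 and 5.94 RPKM in knock-out libraries 1 to 5 and at 2.22, 1.21, 1.52 and 2.34 RPKM in the wild-type libraries. Its highest value was in knock-out library 4, and the groups were apart, with a log2 fold change of 1.77 (limma adjusted p = 2.4e-05). Ctsc, which activates granule serine proteases, had means of 12.1 ± 0.729 (SD, n = 5) and 6.08 ± 0.866 (SD, n = 4) RPKM and a log2 fold change of 0.99 (limma adjusted p = 4.1e-06). Ctse and Ctsw were under the filter.

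Of 12 inhibitors of cysteine cathepsins in the table, cystatins and their relatives, 5 were tested, 3 rose and 1 fell, against the background of 37.0% of all genes tested higher and 14.8% lower. Cst6 (cystatin E/M), a strong inhibitor of legumain, had means of 9.29 ± 0.961 RPKM (SD, n = 5) in knock-out and 2.19 ± 0.137 RPKM (SD, n = 4) in wild-type muscle. The lowest knock-out library (7.74 RPKM) was far above the highest wild-type library (2.33 RPKM), and its log2 fold change of 2.03 (limma adjusted p = 7.2e-09) was the largest of the list. The cytosolic inhibitor Cstb rose by 1.09, and the abundant secreted inhibitor Cst3 by 0.44, from 323 to 439 RPKM (limma adjusted p = 3.1e-06 and 0.00024). Ctla2a, which resembles a cathepsin propeptide and inhibits cathepsin L-like proteases, fell from 3.47 ± 0.309 (SD, n = 4) to 1.98 ± 0.404 (SD, n = 5) RPKM (log2 fold change -0.80, limma adjusted p = 0.00054). Ctla2a and its close relative Ctla2b (-0.37, limma adjusted p = 0.08) may share reads.

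Of 11 tested genes of a list for the tagging and sorting of lysosomal proteins, 7 were higher and none lower, against the same background of 37.0% and 14.8%. The list is mixed, as it also holds the precursors Psap and Grn, which are among the 7 higher genes. The median log2 fold change of the whole list was 0.32, beside 0.12 for all genes. Both mannose 6-phosphate receptors rose, Igf2r by 0.43 and M6pr by 0.28 on the log2 scale (limma adjusted p = 0.0005 and 0.0023). The adaptor Gga2 rose by 0.76 and Gga3 by 0.32, as did Nagpa, which uncovers the tag, by 0.39 (limma adjusted p = 1.8e-06, 0.0019 and 0.0069). Psap, the precursor of the saposins, rose by 0.65 from 211 to 332 RPKM, and Grn, the precursor of the granulins, by 0.62 (limma adjusted p = 2.2e-06 and 0.001). Gnptab, the enzyme that begins the tag, had a log2 fold change of -0.10 (limma adjusted p = 0.25), and Gnptg, Sort1 and Gga1 also missed the threshold. With the median gene set to 0, Gnptab was at -0.23 and passed the threshold (limma adjusted p = 0.02). It was then the 1 gene of the list that was lower, against a background of 25.0%.

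Of 10 tested genes for other lysosomal proteases and their partners, 8 were higher and none lower, where 37.0% of all genes were higher and 14.8% lower. Their median log2 fold change was 0.55, beside 0.12 for all genes. The peptidases Cpq, Prcp, Dpp7, Scpep1 and Tpp1 rose by 0.74, 0.68, 0.56, 0.55 and 0.29 on the log2 scale (limma adjusted p between 1e-05 and 0.0019). Ifi30, a lysosomal thiol reductase, rose by 1.07 (limma adjusted p = 4e-07), and Cd74, the invariant chain that cathepsins trim in antigen-presenting cells, by 1.22 (limma adjusted p = 3.9e-05). The enzymes that Ctsa protects differed, with Glb1 at 0.55 (limma adjusted p = 0.0043) and Neu1 at 0.05 (limma adjusted p = 0.69), a difference between them that was not tested.

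The calpain family was set beside the lysosomal proteases, in a list that also holds the subunit Capns1 and the inhibitor Cast. Of this family, Capn1 and Capn2 are cytosolic proteases that need calcium. Of 9 tested genes of this mixed list, 6 were higher and 2 lower, where 37.0% of all genes were higher and 14.8% lower. The count of lower genes in the list is near the background. Capns1 and Cast are among the 6 higher genes, and both lower genes are calpains. Mean levels rose from 15.3 to 32.8 RPKM for Capn2, from 24.2 to 38.2 RPKM for Capn1, from 64.9 to 130 RPKM for their shared small subunit Capns1 and from 12.9 to 20.9 RPKM for their inhibitor Cast (limma adjusted p from 6.5e-08 to 4e-05). Capn6 and Capn15 rose by 1.16 and 0.57 on the log2 scale (limma adjusted p = 0.0015 and 0.0009). Capn3, the calpain typical of muscle fibres, fell from 44.8 ± 0.972 (SD, n = 4) to 38.5 ± 2.28 (SD, n = 5) RPKM (log2 fold change -0.22, limma adjusted p = 0.0046), and Capn7 fell by 0.16 (limma adjusted p = 0.041). The count of lower calpains was 1 under 11 of the 21 alternative settings.

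**Figure D5:**
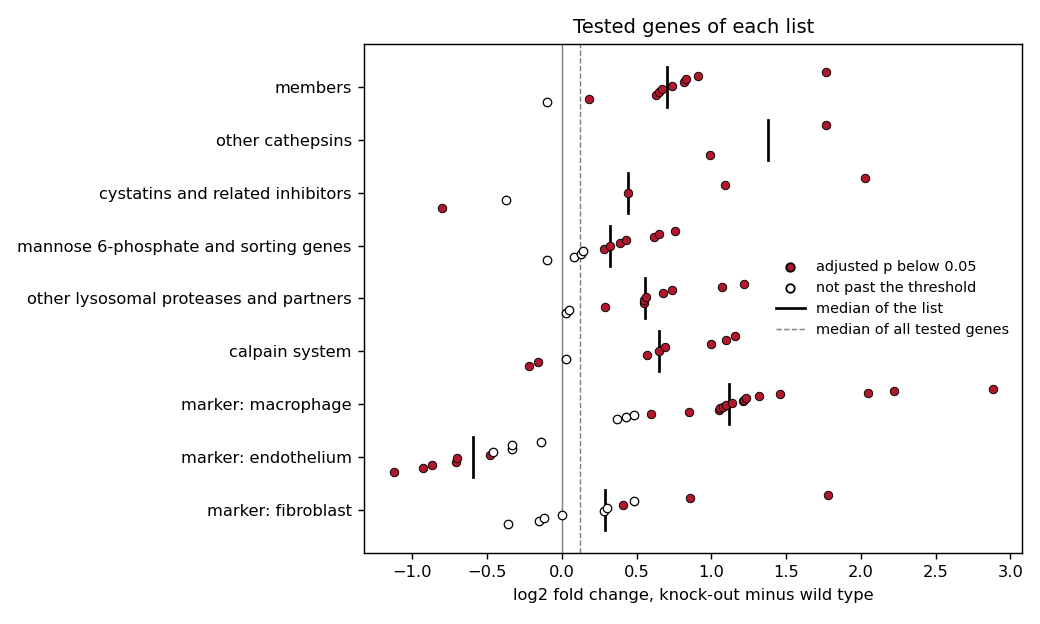
Log2 fold change, knock-out against wild type, of every tested gene of the members, the 5 pathway lists and the macrophage, endothelium and fibroblast markers, with filled points for genes past the threshold and a bar at the median of each list. The median of the members is 0.71 and that of the mannose 6-phosphate and sorting genes is 0.32.

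Markers of other cell types were read from the same fit. Macrophages hold much cathepsin and legumain RNA, and of 23 macrophage markers 18 were tested, 15 rose and none fell, beside 37.0% higher and 14.8% lower of all genes, with a median log2 fold change of 1.12. Lyz2, C1qb and C1qa had knock-out means of 36.7, 11.7 and 10.4 RPKM and wild-type means of 14.4, 4.95 and 4.82 RPKM. The list summed to 87.5, 94.5, 93.5, 148 and 101 RPKM in knock-out libraries 1 to 5 and to 46.1, 38.6, 40.5 and 50.4 RPKM in the wild-type libraries. The highest sum was in knock-out library 4, where Ctss, Ctsk and Ctsh also had their highest levels and where Lgmn, Ctsb and Ctsl had their lowest knock-out levels. No macrophage marker was at 0 in every library, and the part of these cells in the rise of the members was not tested.

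Of 10 fibroblast markers 3 rose, a share no higher than the 37.0% of all genes, and the list summed to 303 to 404 RPKM in knock-out and 202 to 294 RPKM in wild-type libraries, with Dcn at means of 186 and 141 RPKM. Of 10 endothelial markers 6 fell and none rose, beside 14.8% of all genes lower, with sums of 28.8 to 50.5 RPKM in knock-out and 39.9 to 64.7 RPKM in wild-type libraries. Mast cell markers had sums of 3.06 to 4.13 and 3.75 to 5.77 RPKM with none of 4 tested genes called, beside 37.0% higher and 14.8% lower of all genes. With the median gene set to 0, 1 of these 4 genes was lower, against a background of 25.0%. Cytotoxic lymphocyte markers had sums of 1.32 to 1.83 and 0.129 to 1.06 RPKM, with Cd3e, the only gene tested, higher. Most of the knock-out sums came from Cd3e, at 1.13 to 1.61 RPKM. In wild-type libraries 1 to 4 Cd3e was at 0.0373, 0.0551, 0.711 and 0.832 RPKM, and the 6 other markers were under the filter. No neutrophil marker passed the filter (0.328 to 0.758 and 0.413 to 2.02 RPKM). The part of these cells in the results was not tested.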

How the data were processed

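RNA-seq of mouse gastrocnemius muscle was analysed from 1 table of RPKM values per transcript, deposited by the authors for 5 knock-out and 4 wild-type libraries. Per the labels' protocols, RNA was isolated with Trizol and the Illumina TruSeq RNA kit was applied to total RNA. The submitters' processing notes name TopHat 1.3.2, Bowtie 0.12.7.0, Partek 6.6 and mm9. The sources used here do not give their roles, filters, strand setting or annotation. The table's build differs from the reference, so no coordinates were taken from the table.

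The 23665 transcripts were summed to 18062 genes, and 36 of 37 symbols turned into dates were restored. Genes with a mean of at least 0.5 RPKM (11032) were tested with limma 3.58.1 (R 4.3.3; eBayes with trend) on log2(RPKM + 0.1), two-sided. P-values were adjusted by Benjamini-Hochberg and called below 0.05. Log2 fold changes refer to that scale, which understates those of low genes. Single values were tested by an exact two-sided permutation test, whose smallest possible p is 0.0079. The fit was tested on simulated data. Low RPKM values lay within 0.1 of whole multiples of a step in 70.8% to 74.3% of cases, too few to recover reads, so depth and reads per gene are estimates that use GENCODE M21 transcript lengths. Shared 50-base stretches and exon overlaps came from GENCODE M21, and promoter windows from RefSeq on GRCm38.p6. Analyses also used Python 3.11.15 with pandas 2.3.3, numpy 2.4.6 and matplotlib 3.10.9.

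The members and gene lists were chosen with earlier results of these data known. All members are described, called genes of the 5 pathway lists could be named with others for contrast, and of each marker list the 3 genes with the highest mean. Ctla2b, Gnptab, Gnptg, Sort1, Gga1, Neu1, Ctse, Ctsw, Cd3e and the overlapping genes were named after their values were seen. Alternatives comprised other pseudocounts, filters, scalings and variance models, the main transcript only, and leaving out libraries.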

Additional observations from a re-analysis of the deposited data

How the results depend on the processing

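Ctsa, Ctsb, Ctsd, Ctsh, Ctsl, Ctsz and Lgmn kept their direction and their side of the threshold under all 21 alternatives, the log2 fold change of Lgmn ranging from 1.59 to 1.90. No result reversed. Ctsf lost its call with median centring (0.06), quantile normalization (0.05), removal of the trend with transcript length (0.0), without wild-type libraries 1 and 2 (0.16) and without 3 and 4 (0.21). Leaving out single libraries gave 0.15 to 0.21 for Ctsf, with adjusted p up to 0.088. Ctsk lost its call only without wild-type libraries 1 and 2 (0.48). Ctso became lower with median centring (-0.23), quantile normalization (-0.25) and removal of the length trend (-0.21), so that the count of members lower was 1 under these 3 settings, while the count of members higher ran from 7 to 9. Median centring removes the differences between libraries in their median by construction. For the other changes of a call the cause was not tested. The 24 differing pairs of members numbered 24 also with pseudocounts of 1 and 0.01, which were chosen after seeing the data. Of the lists, cystatins lower ran from 1 to 2 and sorting genes lower from 0 to 1. Macrophage markers higher ran from 9 with a filter at a mean of 2 RPKM to 19 with no filter. These 2 settings change which markers are tested. No paired analysis was possible because the value columns of the wild-type libraries carry no replicate number from the labels. The labels also describe no pairing of knock-out with wild-type libraries, so a shared replicate number would not by itself make a pair. Depth was low for Ctsk and Ctsh, with an estimated 76 to 293 and 84 to 255 reads per library.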
